A study of Mus musculus with 11 samples.

Results

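The 42 genes described here encode interferon receptors, the transcription factors that carry the interferon signal, and genes that interferon switches on. They were listed by symbol, not by a measured value, and all 42 were found among the 24035 genes of the gated files and the 23420 genes of the unfractionated files. Ddx58 is the gene now also called Rigi. Of the 42, 9 are receptors and signalling genes (Ifnar1, Ifnar2, Ifngr1, Ifngr2, Stat2, Irf1, Irf3, Irf7 and Irf9) and 33 are target genes. A gene with several RefSeq transcripts was represented by the one of highest average RPKM across the 7 gated libraries.

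Hematopoietic stem cells (HSCs) of the C57BL/6 strain, wild-type in genotype, were sorted from postnatal day 0 liver as lineage-negative, Sca1+, cKit+, CD150+ and CD48- cells. Between 100 and 200 cells went into each Smart-seq2 library, a full-length mRNA method for small samples. The 4 FSC-A High and 3 FSC-A Low libraries held HSCs gated by forward scatter area, a light-scatter measure that grows with cell size, and a further 4 libraries (WT HSC) held HSCs with no such gate. All 11 libraries share strain, genotype, tissue and age, and none is labelled as treated with interferon. The labels do not say whether libraries came from separate animals or pools, so the p-values speak of the spread among these libraries alone, and that spread may be technical.

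Type I interferons bind a receptor made of Ifnar1 and Ifnar2, and interferon gamma binds Ifngr1 with Ifngr2. Janus kinases on the receptors then phosphorylate Stat proteins. Stat2 and Irf9 are parts of a complex that binds the interferon-stimulated response element, while paired Stat proteins bind the gamma-activated site. The target genes encode antiviral proteins and parts of the signalling itself, and many have a basal level in stem cells without infection. In HSCs, interferon exposure is known to bring dormant cells into cycle, and stem cells hold some antiviral genes, the Ifitm family among them, at a high resting level.

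The response element is visible in the DNA before several of the genes. Windows of 6 genes are printed because they hold the element in genes that were higher in FSC-A High (Ifitm3, Bst2), lower (Oas3, Gbp7, Igtp) or under the threshold with libraries that did not overlap (Ifit1). They come from RefSeq on GRCm38.p6 and read 5′ to 3′ on the strand of the gene. Capitals mark the core of the element, GAAA and GAAA with 2 bases of any kind between them, or its reverse, TTTC and TTTC with the same spacing, and overlapping matches run together.
Ifitm3: agGAAAAGGAAActtctgaGAAACCGAAAc
Bst2: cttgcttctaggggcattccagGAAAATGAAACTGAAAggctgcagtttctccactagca
Oas3: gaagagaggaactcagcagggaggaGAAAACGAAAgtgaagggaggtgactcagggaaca
Gbp7: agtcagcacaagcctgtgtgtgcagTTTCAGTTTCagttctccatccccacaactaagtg
Igtp: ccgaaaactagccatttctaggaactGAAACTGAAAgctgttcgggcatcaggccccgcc
Ifit1: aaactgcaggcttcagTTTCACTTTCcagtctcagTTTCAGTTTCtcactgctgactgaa

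The Ifitm3 window is chr7:141010715-141010744 on the minus strand, the first 30 bases of the transcript. The other windows hold 60 bases each before the start. Bst2 is at chr8:71537565-71537624 (minus), Oas3 at chr5:120777700-120777759 (minus), Gbp7 at chr3:142530258-142530317 (plus), Igtp at chr11:58199496-58199555 (plus) and Ifit1 at chr19:34640769-34640828 (plus). Of the 33 members with a promoter entry (250 bases before to 50 after the start), 15 held the core on either strand, a share of 45.5%, against 3.99% of 27025 genes with an entry. The core lay in 14 of 24 target promoters and in 1 of 9 receptor and signalling promoters, that of Stat2. By direction it lay in 2 of 4 targets called higher, 4 of 6 called lower and 8 of 14 not called. The gamma-activated site, TTCNNNGAA (its own reverse complement), lay in 13 of the 33 (39.4%) against 9.55% of all genes. It overlapped the response element in Bst2 and Ifitm3. A match is a string of letters, not a measured binding site.

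The deposited gated values are RPKM (reads per kilobase of transcript and per 1 M reads) and the unfractionated values are size-factor-scaled counts, given here as CPM (counts per 1 M gene reads). The 4 unfractionated libraries held 21307178 to 30889443 gene reads, and the steps of the RPKM values put the gated libraries at about 65.8 to 98 M reads each. Smart-seq2 reads carry no molecular identifiers. In the gated libraries the stem cell markers were present, with summed values of the 9 markers at 218 to 251 RPKM in FSC-A High and 253 to 291 RPKM in FSC-A Low. Of the 9, Kit (log2 difference -1.35), Mecom (-1.39) and Hlf (-0.90) were called lower in FSC-A High and none higher. Ly6a, the gene of the sort marker Sca1, had a value of 0.92 that did not pass (limma adjusted p = 0.0518; 27.4 against 12.8 RPKM), Procr stood at 0.35 (adjusted p = 0.261), and Cd48 was at 0.0822 to 3.32 RPKM over the 7 libraries.

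Calls among the interferon genes went both ways between the gates. In the targets, the membrane proteins Ifitm3, Ifitm1 and Bst2 and Ifi35 were called higher in FSC-A High. Samd9l, Ifi44, Oas3, Ddx58, Parp9, Igtp and Gbp7 were called lower. The receptor gene Ifnar2 was higher in its short transcript, and the factors Stat2 and Irf9 were lower. Of 40 members that passed the filter (at least 1 RPKM in at least 3 libraries), 5 were called higher (12.5%) and 9 lower (22.5%) at a limma adjusted p below 0.05. Over all 10614 genes tested, 15.6% were called higher, 11.7% lower and 27.3% in either direction. Among the 9 receptors and signalling genes, 1 was higher, 2 were lower and 6 did not pass, with a median log2 difference (FSC-A High minus FSC-A Low, on log2(RPKM + 1)) of -0.11. Of the 31 targets tested, 4 were higher (12.9%, under the share of all genes), 7 lower (22.6%) and 20 did not pass, with a median of -0.21. Set beside these, the median of all genes tested was -0.04. All 4 targets called higher had transcripts up to 1600 nt, where 36.7% of all genes were called higher. Single libraries moved these figures: without FSC-A Low 1, 3 targets were called lower, the target median was -0.48 without FSC-A High 4, -0.44 without FSC-A Low 3 and -0.13 without FSC-A High 2, and no receptor or signalling gene was called without FSC-A High 2, FSC-A High 3 or FSC-A Low 1. With the trend over transcript length removed, 1 member stayed higher (Ifitm3) and 5 lower, all targets, and the calls of Ifitm1, Bst2, Ifi35, Ifnar2, Stat2, Irf9, Parp9 and Gbp7 were lost. In these bulk samples, fewer expressing cells and less RNA per cell cannot be told apart.

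The same members can be read by overlap of the libraries. In 3 targets every FSC-A High library was above every FSC-A Low library (Ifitm3, Ifitm1 and Bst2), and in 9 targets every FSC-A High library was below. Ifnar2 was separated upwards and Ifnar1 downwards among the receptors and signalling genes. Over all genes tested, 18.9% were separated upwards, 16% downwards and 34.9% either way. Both kinds of count lean to the lower side in the targets and do not do so over all genes, and this lean was not tested.

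A further scale was the summed RPKM of all genes in each library, which is not a read total, since RPKM is already per 1 M reads. With summed RPKM as the scale, the median of all genes moved to -0.30, with 9.19% of genes called higher and 21.4% lower. The targets then counted 3 higher and 11 lower with a median of -0.50, and the receptors and signalling genes 0 higher and 3 lower with a median of -0.42. With upper quartile scaling, 13.6% of all genes were higher and 13.8% lower, and the targets counted 3 and 8. The target median was -0.29 there, beside -0.12 for all genes, so it lay below the median of all genes on each of these scales.

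The 4 receptor genes were measured at 11.7 to 104 RPKM, and the type I chains Ifnar2 and Ifnar1 had log2 differences of opposite sign, with Ifnar2 alone called. For Ifnar2, a gene for a chain of the type I receptor (chromosome 16, 91372783 to 91405589), the short transcript was the one tested. It stood at 58.2, 55.6, 64.8 and 52.8 RPKM in FSC-A High 1 to 4 and at 32.6, 41.9 and 43.4 RPKM in FSC-A Low 1 to 3. All 4 FSC-A High values were above all 3 FSC-A Low values. The means were 57.8 ± 5.13 (SD, n = 4) and 39.3 ± 5.86 (n = 3), which gave 0.55 as the log2 difference (SE 0.17, limma adjusted p = 0.0313).

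That Ifnar2 call rests on a short transcript of 1099 nt, and which form of the receptor chain it encodes was not examined. The longer Ifnar2 transcript of 3047 nt stood at 25.9, 23.8, 28.1 and 24.1 RPKM in FSC-A High and 13.4, 24.4 and 20.2 RPKM in FSC-A Low, where the libraries overlapped. Summed over both transcripts the log2 difference of Ifnar2 was 0.51 and did not pass. For the short transcript the difference was 0.43 without FSC-A Low 1 (adjusted p = 0.124), and 0.55, 0.57 and 0.50 without FSC-A High 1, 2 and 3 (adjusted p of 0.0511, 0.0581 and 0.0940). A further 9.92% of the exon bases of Ifnar2 are shared with the predicted gene Gm21970 on the same strand.

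Ifnar1, the partner chain of the type I receptor (chromosome 16, 91485032 to 91510523), had values of 11.7, 12.5, 12.9 and 12.5 RPKM in FSC-A High and 14.5, 18.1 and 20.2 RPKM in FSC-A Low. Here the order of the gates was the reverse of that for Ifnar2, with no overlap, and the log2 difference of -0.46 did not pass (SE 0.22, limma adjusted p = 0.145). The Ifnar1 transcript is longer, at 3909 nt. With the trend over transcript length removed, Ifnar1 was at -0.19 (limma adjusted p = 0.600) and Ifnar2 at 0.15. Neither was called, and the gates then overlapped in every receptor gene. Ifngr1, the ligand-binding chain for interferon gamma, had the highest level of the 4 receptor genes, at 99.6, 65.4, 104 and 81.4 RPKM in FSC-A High and 93.1, 104 and 83.6 RPKM in FSC-A Low. The gates overlapped throughout (-0.11, SE 0.18, adjusted p = 0.687). Ifngr2, the signalling chain, stood at 17.3, 14.6, 20.6 and 31.6 RPKM in FSC-A High and 14.9, 23.7 and 42.2 RPKM in FSC-A Low. Its spread within a gate exceeded the difference between them (-0.28, SE 0.33, adjusted p = 0.573).

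The transcription factors divided into a pair that was lower in FSC-A High and 3 Irf genes with no detectable difference. Stat2, the Stat of the type I complex (chromosome 10, 128270498 to 128292853), stood at 5.13, 2.91, 1.95 and 3.53 RPKM in FSC-A High and 14.9, 10.7 and 5.05 RPKM in FSC-A Low. FSC-A High 1 lay just above FSC-A Low 3, and the other values did not cross. The means were 3.38 ± 1.33 and 10.2 ± 4.95 RPKM (log2 difference -1.30, SE 0.38, limma adjusted p = 0.0234). Irf9, its DNA-binding partner (chromosome 14, 55603985 to 55610030), stood at 19.4, 21.2, 22.6 and 28.8 RPKM in FSC-A High and 41.0, 40.6 and 28.6 RPKM in FSC-A Low. Again a single pair of libraries crossed, FSC-A High 4 and FSC-A Low 3 (23.0 ± 4.11 against 36.7 ± 7.04 RPKM, log2 difference -0.65, SE 0.21, adjusted p = 0.0395).

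Neither call held with every library left out in turn, while the log2 differences moved less. Stat2 was at -1.26 without FSC-A High 2 (limma adjusted p = 0.0546), -1.13 without FSC-A High 3 (0.0681), -0.995 without FSC-A Low 1 (0.102) and -1.21 without FSC-A Low 2 (0.0650). Irf9 was at -0.58, -0.62 and -0.65 without FSC-A High 1, 2 and 3 (adjusted p of 0.0805, 0.0887 and 0.0815), and at -0.56 and -0.57 without FSC-A Low 1 and 2 (0.129 and 0.118).

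Irf7, an amplifier of interferon production that is itself induced, was the most abundant of the factors. It stood at 73.4, 69.3, 72.5 and 88.1 RPKM in FSC-A High and 76.4, 74.9 and 69.3 RPKM in FSC-A Low, for a difference of 0.04 on the log2 scale (SE 0.15, limma adjusted p = 0.877). Irf3, which is present before infection and acts early, stood at 22.9, 37.8, 26.2 and 34.9 RPKM against 28.5, 34.9 and 24.8 RPKM (0.03, SE 0.22, adjusted p = 0.925). Irf1, a factor induced by interferon gamma, stood at 19.6, 14.6, 21.1 and 27.4 RPKM against 17.3, 15.5 and 16.1 RPKM (0.29, SE 0.24, adjusted p = 0.392). The gates overlapped in all 3.

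**Figure D1:**
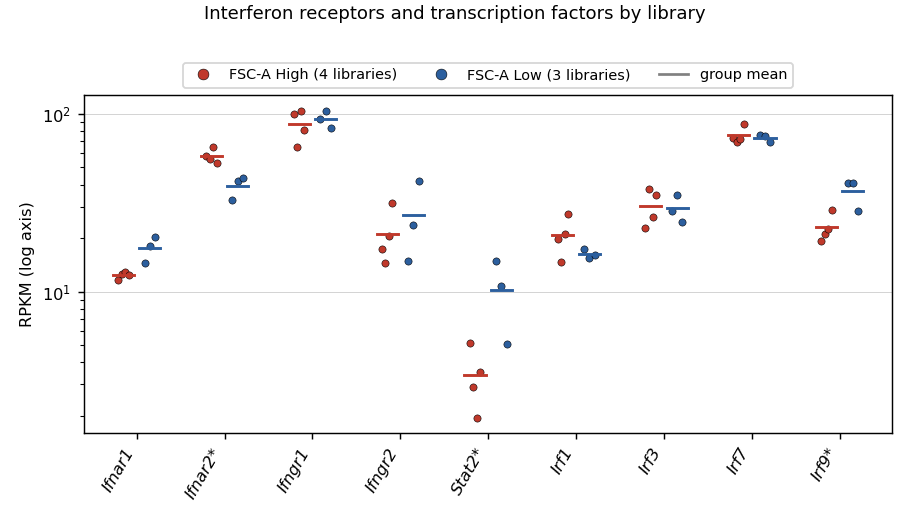
RPKM of the 4 receptor genes and 5 transcription factors in each gated library on a log axis (points) with the mean of each gate (bars); an asterisk marks a gene called at a limma adjusted p below 0.05. Ifnar2, shown by its short transcript, sits higher in FSC-A High (57.8 against 39.3 RPKM on average), Stat2 and Irf9 sit lower, and the other 6 were not called.

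Among the 5 genes for membrane proteins that act on virus entry or budding, 3 were called higher (Ifitm3, Ifitm1 and Bst2), beside 15.6% of all genes and 36.7% of all genes with transcripts up to 1600 nt. With the length trend removed 1 of the 5 was called. The 3 Ifitm genes had the highest RPKM of all members. The Ifitm genes encode small proteins that block fusion of viruses with cell membranes. Ifitm3 (chromosome 7, 141009590 to 141010744) was the most abundant member, at 1381, 1975, 1575 and 1588 RPKM in FSC-A High and 732, 811 and 777 RPKM in FSC-A Low. The lowest FSC-A High library was well above the highest FSC-A Low library. The means were 1629.9 ± 249 and 773 ± 39.7 RPKM, and the log2 difference was 1.06 (SE 0.12, limma adjusted p = 6.86e-05). Ifitm3 was called in each of the 24 alternative settings, with log2 differences of 0.44 to 1.14.

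Ifitm1 (chromosome 7, 140967429 to 140969827) stood at 661, 1004, 866 and 1301 RPKM in FSC-A High and at 532, 501 and 511 RPKM in FSC-A Low. The FSC-A Low libraries lay close together and the FSC-A High libraries spread widely above them (958 ± 268 against 515 ± 15.7 RPKM, log2 difference 0.85, SE 0.18, limma adjusted p = 0.00378). Ifitm2, the third of these neighbouring genes, was at 121, 245, 263 and 445 RPKM in FSC-A High and 230, 212 and 203 RPKM in FSC-A Low. FSC-A High 1 was the lowest and FSC-A High 4 the highest of the 7, and the difference did not pass (0.18, SE 0.31, adjusted p = 0.713). Ifitm2 shares 40.9% of its exon bases with the predicted gene Gm45717, and reads of the 3 similar Ifitm genes may be divided among them with error.

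Bst2, or tetherin, which holds budding virus particles at the cell surface (chromosome 8, 71534255 to 71537472), stood at 57.2, 66.4, 76.4 and 104 RPKM in FSC-A High and 27.9, 32.2 and 45.4 RPKM in FSC-A Low. All FSC-A High libraries were higher (log2 difference 1.08, SE 0.23, limma adjusted p = 0.00370). Bst2 is also a marker of plasmacytoid dendritic cells. The 6 markers of that cell type summed to 61.2 to 109 RPKM in FSC-A High and 33.2 to 50.8 RPKM in FSC-A Low, most of it Bst2 itself. Siglech and Ly6d were at 0 in all 7 libraries, and Ccr9 was near 0. Tcf4, the regulator of that lineage, averaged 2.66 RPKM in FSC-A High and 5.55 RPKM in FSC-A Low and did not pass (adjusted p = 0.0618), and Pacsin1, under the filter, averaged 0.940 and 0.294 RPKM. The part of such cells in the Bst2 difference was not tested. Rsad2, or viperin, stood at 2.44 to 5.27 RPKM against 2.53 to 7.36 RPKM and did not pass (-0.42, adjusted p = 0.436).

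Of the 10 genes for RNA-binding and RNA-degrading antiviral proteins, 1 was called lower and none higher, beside 11.7% called lower over all genes. The log2 difference was below 0 in 8 of the 10 and in 5565 of all 10614 genes. Oas3, a synthetase of the oligoadenylates that activate RNase L (chromosome 5, 120753098 to 120777684), stood at 1.14, 3.40, 1.33 and 1.64 RPKM in FSC-A High and 5.70, 5.32 and 7.65 RPKM in FSC-A Low. The gates did not overlap (1.88 ± 1.04 against 6.22 ± 1.25 RPKM, log2 difference -1.38, SE 0.34, limma adjusted p = 0.0102). The related Oas2 stood at 1.23, 1.76, 2.28 and 4.56 RPKM in FSC-A High and 6.69, 8.20 and 1.72 RPKM in FSC-A Low. FSC-A Low 3 was out of line with the other FSC-A Low libraries, and Oas2 did not pass (-0.83, adjusted p = 0.202). Without FSC-A Low 3 the log2 difference of Oas2 was -1.37 (adjusted p = 0.0312). Oas2 was not called with any other single library left out.

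Oas1a stood at 9.74, 11.2, 16.2 and 26.0 RPKM in FSC-A High and 25.2, 23.8 and 18.4 RPKM in FSC-A Low. It did not pass (-0.57, adjusted p = 0.189), and without FSC-A High 4 it was called lower (-0.83, adjusted p = 0.0394). No other single library left out gave a call for Oas1a. Oasl2, a paralog, ranged over 18.1 to 39.3 RPKM and 16.4 to 32.7 RPKM (-0.12, adjusted p = 0.812). Reads of the several Oas1 copies may be divided among them with error.

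The Ifit genes encode proteins that bind viral RNA ends. Ifit1 (chromosome 19, 34640889 to 34650009) stood at 4.15, 8.67, 7.80 and 9.81 RPKM in FSC-A High and 13.2, 12 and 13.6 RPKM in FSC-A Low. The gates did not overlap, yet the test was not passed (-0.75, SE 0.30, limma adjusted p = 0.0815). Ifit2 (0.898 to 5.28 RPKM against 1.43 to 3.41 RPKM) and Ifit3 (0.427 to 3.76 RPKM against 1.52 to 3.49 RPKM) had log2 differences of -0.16 and -0.17. Adar, the RNA-editing enzyme, stood at 6.83, 6.16, 6.91 and 8.49 RPKM in FSC-A High and 10.8, 11.7 and 12.5 RPKM in FSC-A Low, again with no overlap and no call (-0.65, SE 0.25, adjusted p = 0.0739). Adar shares 22.75% of its exon bases with Chrnb2 on the opposite strand. The nuclease gene Isg20 (0.57, adjusted p = 0.116) and the kinase gene Eif2ak2, or PKR (0.01, adjusted p = 0.977), were the other members of this role and did not pass.

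Among the 4 cytosolic sensors of nucleic acids, Ddx58 was called lower. This gene encodes RIG-I, a sensor of viral RNA (chromosome 4, 40203777 to 40239825), and stood at 4.45, 4.95, 3.25 and 7.02 RPKM in FSC-A High and 17.2, 16.5 and 8.23 RPKM in FSC-A Low. No library crossed (4.92 ± 1.58 against 14.0 ± 4.97 RPKM, log2 difference -1.31, SE 0.33, limma adjusted p = 0.0110). Ifih1, which encodes the related sensor MDA5, was nearly level at 7.71, 8.21, 7.27 and 8.89 RPKM against 9.10, 8.42 and 8.11 RPKM (-0.08, SE 0.25, adjusted p = 0.840). Dhx58, for LGP2, the third protein of this family, stood at 10.4, 13.4, 10.6 and 17.3 RPKM in FSC-A High and 27.5, 25.9 and 11.3 RPKM in FSC-A Low. FSC-A Low 3 fell within the FSC-A High range, and Dhx58 did not pass (-0.63, adjusted p = 0.159) but was called without that library (-1.02, adjusted p = 0.0195). Leaving out any other single library gave no call for Dhx58. Zbp1, a sensor of Z-form nucleic acids, stood at 1.33 to 6.56 RPKM and 0.0369 to 2.49 RPKM (1.01, adjusted p = 0.159).

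The interferon-inducible GTPases act on the membranes around intracellular pathogens. Igtp (chromosome 11, 58199556 to 58207592) stood at 6.92, 11, 12.4 and 14.5 RPKM in FSC-A High and 27.3, 22.2 and 19.9 RPKM in FSC-A Low, with no overlap (log2 difference -1.01, SE 0.27, limma adjusted p = 0.0139). Leaving out FSC-A Low 1 gave -0.89 for Igtp with an adjusted p of 0.0581. Gbp7, a guanylate-binding protein gene (chromosome 3, 142530336 to 142550151), stood at 8.58, 14.9, 6.43 and 13.7 RPKM in FSC-A High and 22.6, 17.5 and 20.4 RPKM in FSC-A Low. It was separated as well (-0.89, SE 0.29, adjusted p = 0.0384), but without FSC-A High 1, FSC-A High 3 or any FSC-A Low library the adjusted p of Gbp7 was 0.0510 to 0.111, with log2 differences of -0.99 to -0.69. Gbp7 shares 11.3% of its exon bases with the predicted gene Gm43802 on the same strand. Mx1 and Mx2, annotated as transcribed pseudogenes in this strain, were under the filter. Mx1 stood at 0.398, 0.323, 0.0852 and 0.399 RPKM in FSC-A High and 0.827, 2.54 and 1.62 RPKM in FSC-A Low, and Mx2 was at or under 1.36 RPKM in every gated library.

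Parp9 and Dtx3l encode a paired ADP-ribosyltransferase and ubiquitin ligase, and the genes overlap at one end on chromosome 16. Parp9 (35938470 to 35972621) stood at 3.03, 7.14, 8.57 and 9.16 RPKM in FSC-A High and 14.2, 17.7 and 13.7 RPKM in FSC-A Low (log2 difference -1.10, SE 0.33, limma adjusted p = 0.0274). The gates did not overlap. The Parp9 difference was -1.14 without FSC-A Low 1 and -0.99 without FSC-A Low 2, near the value with all libraries, though neither passed (adjusted p of 0.0545 and 0.0825). Dtx3l (35926515 to 35939027) stood at 7.77, 5.25, 7.47 and 7.52 RPKM and 15.1, 10.1 and 7.23 RPKM, where FSC-A Low 3 fell within the FSC-A High range (-0.52, adjusted p = 0.220). The pair shares 367 exon bases on opposite strands, and reads there cannot be assigned without strand. Parp14, a further family member, was near the filter at 0.678 to 1.23 RPKM and 1.08 to 3.09 RPKM (-0.50, adjusted p = 0.298).

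The remaining targets went both ways. Ifi35, whose product pairs with Nmi (chromosome 11, 101448412 to 101458701), stood at 69.1, 95.8, 94.9 and 119 RPKM in FSC-A High and 70.7, 62.2 and 49.1 RPKM in FSC-A Low. FSC-A High 1 lay below FSC-A Low 1, and the log2 difference was 0.62 (SE 0.20, limma adjusted p = 0.0333). Ifi35 shares 17.4% of its exon bases with the predicted gene Gm11626 on the opposite strand. The Ifi35 call was lost when FSC-A High 2, 3 or 4 or FSC-A Low 2 or 3 was left out (log2 differences of 0.48 to 0.65, adjusted p of 0.0585 to 0.129).

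Samd9l, a growth-restraining antiviral gene (chromosome 6, 3372257 to 3399571), had the largest fall of the 40 members, from 6.03, 5.86 and 2.89 RPKM in FSC-A Low to 0.800, 0.728, 1.29 and 0.951 RPKM in FSC-A High. It passed the filter through the FSC-A Low libraries and 1 FSC-A High library (log2 difference -1.57, SE 0.33, limma adjusted p = 0.00419). Ifi44 (chromosome 3, 151730922 to 151749910) stood at 2.95, 3.49, 2.79 and 9.73 RPKM in FSC-A High and 19.8, 11.3 and 11.4 RPKM in FSC-A Low. FSC-A High 4 stood apart from its group but still below every FSC-A Low library (-1.50, SE 0.39, adjusted p = 0.0121), and without FSC-A Low 1 Ifi44 was at -1.25 (adjusted p = 0.0556). Rtp4 (0.12) and Xaf1 (0.30) did not pass.

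The ubiquitin-like modifier gene Isg15 and Usp18, whose product removes Isg15 from proteins and blocks the type I receptor, did not pass either. Isg15 was low throughout, at 1.97, 2.06, 4.14 and 5.43 RPKM in FSC-A High and 1.91, 0.687 and 4.44 RPKM in FSC-A Low (0.48, limma adjusted p = 0.453). Usp18 stood at 12.9 to 24.3 RPKM and 15.4 to 23.6 RPKM (-0.21, adjusted p = 0.607).

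**Figure D2:**
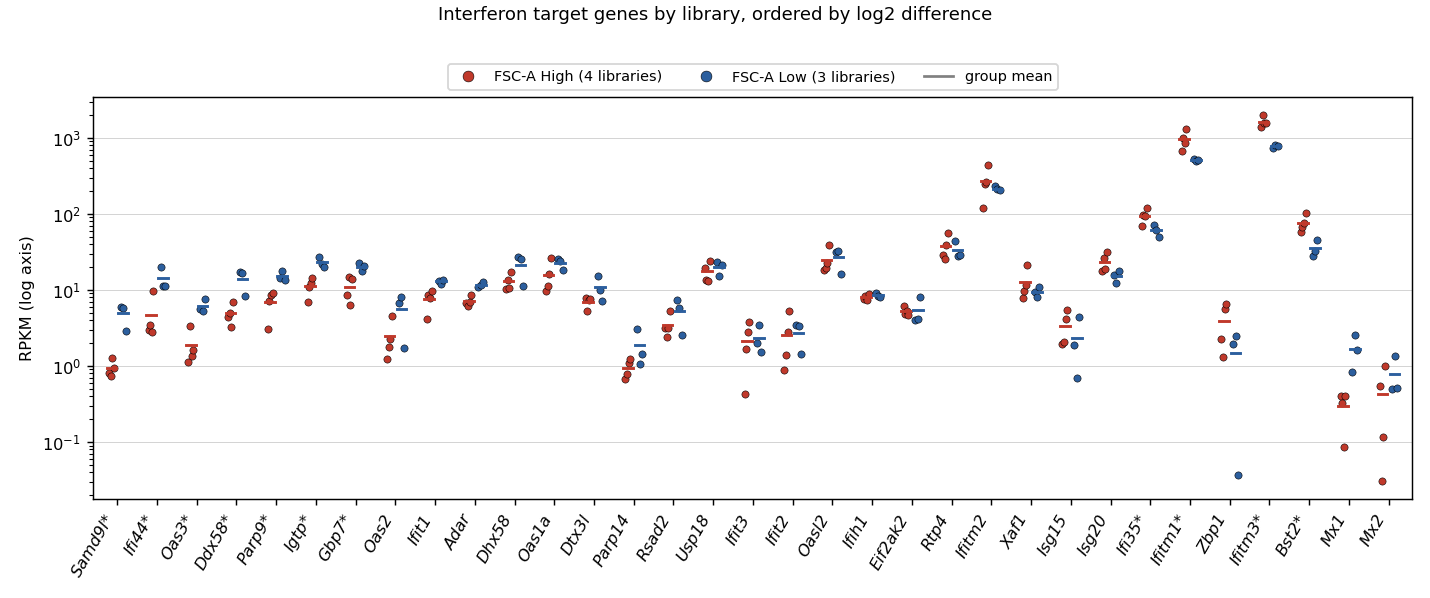
RPKM of the 33 target genes in each gated library on a log axis (points) with the mean of each gate (bars), ordered by log2 difference with the 2 untested Mx genes last; an asterisk marks a gene called at a limma adjusted p below 0.05. The genes called lower stand at the left with values up to 27.3 RPKM, and the genes called higher at the right include Ifitm3 and Ifitm1 with no library under 501 RPKM.

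The direction of the targets ran with the length of their transcripts. Members called higher had a median transcript length of 792 nt (678 to 1362 nt), members called lower 3874 nt (2022 to 5614 nt), and all genes tested 2544 nt. The Spearman correlation of length with log2 difference was -0.70 across the 40 members and -0.42 across 10457 genes with a length. These are correlations across genes of the same libraries, which are not independent replicates. At a division of 1600 nt, chosen after the values were seen, all 9 shorter targets had a positive log2 difference, with 4 called higher and none lower. Of all genes of that length, 36.7% were called higher and 3.54% lower. In the 22 longer targets, none was called higher and 7 were called lower, with 2 positive log2 differences. Of all longer genes, 8.29% were called higher and 14.6% lower.

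With the trend over length removed within each library, fewer members were called in each direction. Ifitm3 was then the sole member called higher (log2 difference 0.53, limma adjusted p = 0.00391), and 5 targets were called lower: Ifi44 (-1.33), Samd9l (-1.25), Oas3 (-1.07), Igtp (-1.07) and Ddx58 (-1.04). Over all genes, 11% were then called higher and 7.83% lower. Igtp was no nearer to 0 after the correction (-1.01 before it). Bst2 (0.58, adjusted p = 0.0675) and Ifitm1 (0.33, adjusted p = 0.142) kept their sign and no longer passed. Ifnar2 came to 0.15 (adjusted p = 0.597), Stat2 to -1.01 (adjusted p = 0.0806) and Irf9 to -0.60 (adjusted p = 0.0621), so that limma called no receptor or signalling gene (2 of 9 at an unadjusted p below 0.05). Across the members a correlation of -0.42 with length was left, against -0.10 over all genes.

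**Figure D3:**
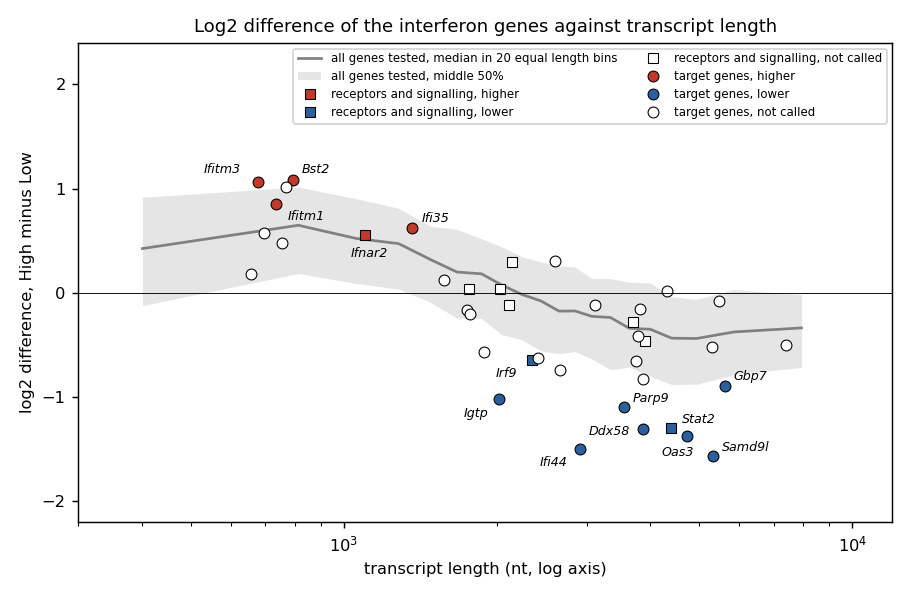
Log2 difference (FSC-A High minus FSC-A Low) against transcript length on a log axis for the 40 tested members, with squares for receptors and signalling, circles for targets, filled where called; the line and band give the median and middle 50% of all genes in 20 length bins. Ifitm3, Ifitm1 and Bst2 lie among short transcripts where the line is above 0, and Ifi44, Oas3, Ddx58, Stat2 and Samd9l lie below the band.

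Libraries of the same gate differed in their target genes in a shared way. FSC-A High 4 had the highest value of its gate in 25 of 31 targets and FSC-A High 1 the lowest in 19. Over all genes tested these libraries were highest in 30.8% and lowest in 29.3%. In FSC-A Low, library 1 was highest in 17 of 31 and library 3 lowest in 16, beside 33.4% and 34.0% of all genes. The mean log2(RPKM + 1) of the 31 targets was 3.36, 3.63, 3.73 and 4.20 in FSC-A High 1 to 4 and 4.16, 4.00 and 3.80 in FSC-A Low 1 to 3, so the gates overlapped. Divided at 1600 nt, a length chosen after the values were seen, the gates overlapped in the longer targets and not in the shorter ones. The shorter targets averaged 5.68, 5.98, 6.23 and 6.66 in FSC-A High and 5.57, 5.39 and 5.45 in FSC-A Low. Of all genes of that length, 36.7% were called higher. The longer targets averaged 2.42, 2.67, 2.70 and 3.19 in FSC-A High and 3.58, 3.44 and 3.13 in FSC-A Low, where FSC-A High 4 lay above FSC-A Low 3.

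FSC-A High 4 had the highest mean target level of its gate and FSC-A Low 3 the lowest. They were left out together after these values were seen, a choice that itself lowers the target median and favours calls of lower targets. Without FSC-A High 4 and FSC-A Low 3 the targets counted 3 higher and 8 lower with a median of -0.66. Over all genes tested that fit called 13.3% higher and 9.17% lower. Oas2 (-1.63, limma adjusted p = 0.0118), Dhx58 (-1.16, adjusted p = 0.0111) and Oas1a (-0.96, adjusted p = 0.0358) were then called lower, Oas3 (-1.22, adjusted p = 0.0632) and Gbp7 (-1.01, adjusted p = 0.0690) no longer passed, and Ifi35 was no longer called higher (0.36, adjusted p = 0.220). Receptors and signalling genes counted 1 higher and 2 lower, as with all libraries.

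Other genes of the pathway, taken from a list of 60 with 47 tested, counted 4 called higher (8.51%) and 14 lower (29.8%), beside 15.6% and 11.7% of all genes; this lean was not tested. With the length trend removed, 2 of 46 were higher and 10 lower, beside 11% and 7.83%. The receptor-bound kinases and Stats counted none higher and 3 lower of 4. Jak1, the kinase of the Ifnar2 and Ifngr1 chains, stood at 22.1 ± 2.36 against 45.4 ± 8.98 RPKM (log2 difference -0.997, limma adjusted p = 0.00275, or -0.69 with the length trend removed). The Jak1 call held there (adjusted p = 0.0252). Jak2, the kinase of Ifngr2 (-1.06), and Stat3 (-0.80) fell as well, but with the length trend removed Jak2 (-0.75, adjusted p = 0.114) and Stat3 (-0.48, adjusted p = 0.106) did not pass. Of 6 negative regulators none was higher and 2 were lower, Socs1, the inhibitor of Jak kinases (-1.50, adjusted p = 0.00859), and Irf2, a repressor of Irf1 targets (-1.10, adjusted p = 0.0136). Of 10 tested genes that act upstream of interferon, 1 was lower, the Toll-like receptor adaptor Ticam1 (-1.06, adjusted p = 0.0388), a share near that of all genes. With the length trend removed Ticam1 was at -0.87 (adjusted p = 0.0974), while Socs1 and Irf2 passed. These 6 genes were named after their values were seen.

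In the 27 further targets tested, 4 were higher (14.8%, near the 15.6% of all genes) and 8 lower (29.6%, beside 11.7%). With the length trend removed, 2 of 26 were higher and 7 lower. B2m, the light chain of class I molecules, stood at 659, 936, 894 and 1396 RPKM in FSC-A High and 299, 306 and 419 RPKM in FSC-A Low (1.47, limma adjusted p = 2.90e-04). Its gates did not overlap. Ly6e (0.87), Nmi (0.65) and the Isg15 conjugating enzyme gene Ube2l6 (0.46) were also higher. With the length trend removed B2m (0.99) and Ly6e (0.90) passed, and Nmi (0.32, adjusted p = 0.219) and Ube2l6 (0.23, adjusted p = 0.296) did not. The falls with the smallest p were those of Irgm2 (-1.95, adjusted p = 6.15e-04), an immunity-related GTPase gene, Slfn2 (-1.52, adjusted p = 0.00172), a Schlafen gene, Pml (-1.41, adjusted p = 0.00241), which organises nuclear bodies, and Ifi203 (-1.49, adjusted p = 0.00264). The exons of Irgm2 overlap those of its neighbour Igtp over 8.01% of the exon bases of Igtp. The interferon genes Ifnb1, Ifna4, Ifng, Ifnl2 and Ifnl3 were at 0 in all 7 gated and all 4 unfractionated libraries, and the sensor genes Tlr7 and Tlr9 were at 0 in the gated ones.

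Summed markers of other cells differed between the gates in some lists, and 1 or 2 genes carried each of these sums. Erythroid markers summed to 110 to 237 RPKM in FSC-A High and 68.2 to 100 RPKM in FSC-A Low, most of it Hbb-bt (log2 difference 1.06, limma adjusted p = 0.0102). With the length trend removed Hbb-bt did not pass (0.53, adjusted p = 0.136). Epor was nearly level (0.06, adjusted p = 0.906). Under the filter, Hba-a1 had the lower mean in FSC-A High (0.253 against 0.443 RPKM) and Klf1 the higher (0.906 against 0.539 RPKM), and Alas2 was near 0. Lymphoid markers summed to 2.22 to 3.49 and 0.538 to 1.64 RPKM, most of it Nkg7. Endothelial markers summed to 3.12 to 7.93 and 9.72 to 16.7 RPKM through Pecam1 (3.96 against 12.2 RPKM). Of the others, all under the filter, Kdr had the lower mean in FSC-A High (0.246 against 0.591 RPKM), and Cdh5, Lyve1 and Stab2 had the higher. Megakaryocyte markers summed to 69.6 to 103 and 52.3 to 67.0 RPKM through Gp9 and Pf4, whereas Itga2b (-0.55) and Gp1bb (-1.02) had the opposite sign and none of the 4 tested was called. Macrophage markers, at 14.3 to 29.0 and 10.2 to 17.3 RPKM, granulocyte markers, at 102 to 147 and 99.9 to 103 RPKM, and hepatocyte markers, at 12.1 to 16.0 and 7.39 to 16.7 RPKM, overlapped between gates. Cd3e, Ncr1 and Ms4a1 were at 0 in all 7 libraries. The part of these cells in the differences above was not tested.

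In the unfractionated HSCs the same membrane genes led. Per kilobase of transcript, Ifitm1 stood at 2934 CPM, Ifitm3 at 2112 CPM and Ifitm2 at 1066 CPM, and Bst2 came next at 160.0 CPM. In the gated libraries Ifitm3 (1263 RPKM) was instead above Ifitm1 (768 RPKM) and Ifitm2 (245 RPKM). The units and processing of the files differ and no test was made between them. Ifitm3 varied least of the 42 over the 4 libraries, at 1642, 1342, 1456 and 1287 CPM (a coefficient of variation of 10.9%).

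Library 4 of the unfractionated HSCs had the highest level in most target genes, though not in the abundant Ifitm genes. It was the highest of the 4 in 22 of 33 targets, with a median ratio of 2.07 to the mean of the other 3. Over 10996 genes at 1 CPM or more in at least 3 libraries it was highest in 27.4%, with a median ratio of 0.864. In the receptors and signalling genes it was highest in 4 of 9, with a median ratio of 1.25. Mx2 stood at 4.76, 3.05, 5.04 and 45.0 CPM in libraries 1 to 4, Isg20 at 18.9, 8.92, 21.2 and 94.4 CPM, and Oas3 at 10.5, 17.5, 23.4 and 71.9 CPM. Ifit1 stood at 80.4, 38.5, 61.9 and 239 CPM and Ddx58 at 57.1, 27.1, 64.1 and 169 CPM. In each of these 5 genes library 4 was at least 2.64 times the next highest library.

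Library 4 was the lowest in 5 of 33 targets (15.2%), a smaller share than the 41.2% of all genes. These were Ifitm1 (2059, 2595, 2483 and 1501 CPM), Ifitm2 (801, 719, 733 and 542 CPM), Ifitm3, Ifih1 (44.2, 51.2, 38.5 and 22.7 CPM) and Parp14. A lowest value in library 4 was thus common over all genes and is not particular to these targets. Library 2 was the lowest in 18 of 33 targets and in 6 of 9 receptors and signalling genes, against 20.7% of all genes. In Stat2 the values were 37.3, 4.69, 23.9 and 27.4 CPM, with library 2 far below the rest. The 4 libraries form a single labelled group, so no comparison between them was tested.

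**Figure D4:**
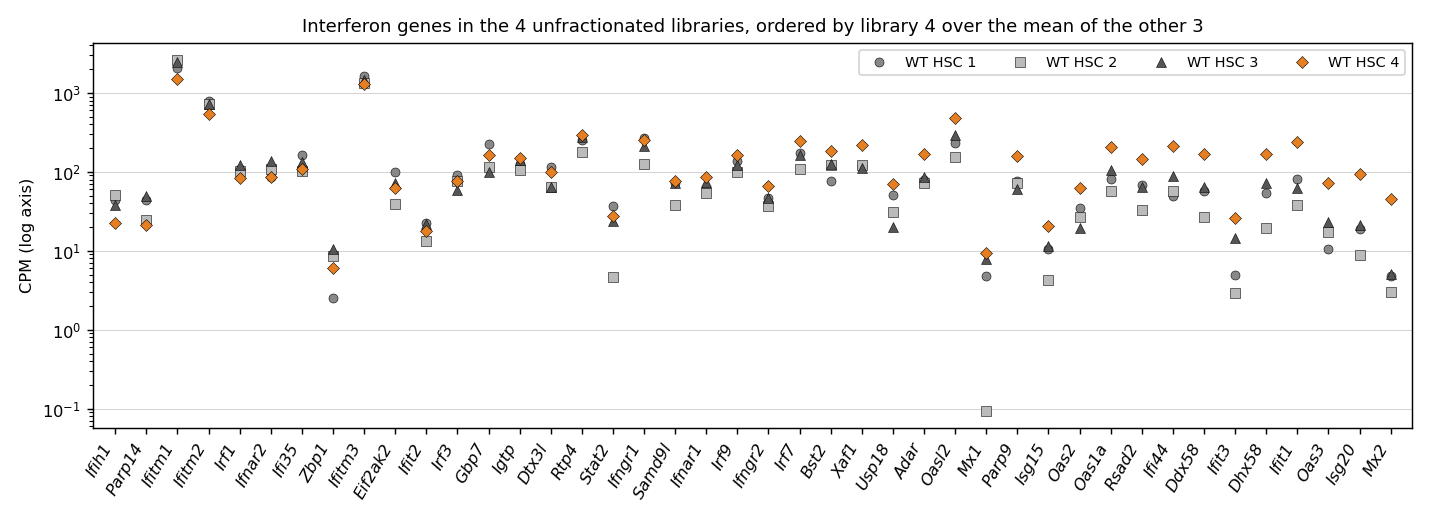
CPM of the 42 members in the 4 unfractionated HSC libraries on a log axis, ordered by the ratio of library 4 to the mean of the other 3. Library 4 (diamonds) lies below the others for Ifitm1 and Ifih1 at the left and above them for Mx2 (45.0 CPM) and Isg20 (94.4 CPM) at the right.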

How the data were processed

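RNA was measured by Smart-seq2 in 7 gated and 4 unfractionated HSC libraries. Per the submitters' processing notes, reads were handled with STAR and DESeq2 on mm10; the tool that made each file is not given in the sources used here. The authors deposited RPKM per RefSeq transcript for the gated libraries, a unit read from the values, and a scaled signal per gene for the others. In the deposited signal 100% of values were whole reads, within 0.01, once multiplied by a size factor, and these reads were expressed as CPM. Of the 33984 transcripts, 32259 were named by accession and 1638 by symbol from RefSeq GRCm38.p6, and 87 kept the name in the file. In the unfractionated files 27 symbols had become dates. Rows that shared a date-like name with another row were left out, and all 27 stayed in the read totals.

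The members, lists and tests were chosen with earlier results of these data known. For the gates, log2(RPKM + 1) of 1 transcript a gene was fitted with limma 3.58.1 (trended variance, no covariate), keeping genes at 1 RPKM or more in at least 3 libraries, with Benjamini-Hochberg adjustment over all genes tested and a threshold of 0.05, two-sided. Separate normalization and a single group kept the WT HSC libraries out of any test. The length trend was a spline with 5 degrees of freedom. On simulated data with 200 of 10614 genes changed between the gates, 58% of changes of log2 size 1 and 93% of size 2 were recovered, with 8 false calls. Named genes were the receptors, the transcription factors, every called target, and up to 4 other pathway genes in each direction with the smallest p. Alternatives covered scaling (with edgeR 4.0.16 for TMM factors), pseudocount, filter, transcript choice, length and expression trends, library weights, replicate block, threshold and each library left out. The sequences of 9 members without a promoter entry were not analysed here, and 1 gene of the pathway list and 1 of the marker lists are not reported here.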

Additional observations from a re-analysis of the deposited data

Results flagged for a closer look

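In groups of 4 libraries, a value was singled out where its gap to the nearest other library took up more of the range of the group, on log2(value + 1), than Dixon's critical value for 4 samples. Over the FSC-A High and WT HSC libraries 84 groups of values were examined and 5 exceeded it, while chance alone flags about 1 in 20 groups. Ifi44 was highest in FSC-A High 4 (ratio 0.836), at 9.73 RPKM beside 2.79 to 3.49 RPKM in the other 3. Mx2 (0.836) and Xaf1 (0.836) were highest in WT HSC 4, Mx2 at 45.0 CPM and Xaf1 at 217 CPM beside 110 to 123 CPM. Dtx3l was lowest in FSC-A High 2 (0.894), at 5.25 RPKM beside 7.47 to 7.77 RPKM. Samd9l was lowest in WT HSC 2 (0.883), at 38.4 CPM beside 71.4 to 77.5 CPM. The log2 difference of Ifi44 without FSC-A High 4 kept its sign and its call. On the linear scale of RPKM and CPM 8 of the 84 groups exceeded the critical value, these 5 among them, and the other 3 were Isg20 (0.856), Parp9 (0.840) and Adar (0.856), each highest in WT HSC 4.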

How the results depend on the processing

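In each of the alternatives, targets were called in both directions, as were all genes tested. The cause of the changes below was not tested, apart from settings that by construction leave fewer libraries or a stricter threshold. Mx2, Mx1 and Parp14 had the lowest mean RPKM of the members, and so rest on the fewest reads for their length.

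With summed RPKM as the scale, all genes counted 975 higher and 2272 lower, receptors and signalling genes 0 higher, targets 11 lower, and the medians were -0.42 (receptors and signalling) and -0.50 (targets). Receptors and signalling genes also counted 0 higher with upper quartile scaling, with the sum and with the mean over transcripts, and with the expression trend removed, where targets counted 2 higher. The median of the targets was -0.42 with the sum over transcripts. Without a filter on low values, receptors and signalling genes counted 0 lower and targets 2 higher. With the length trend removed, all genes counted 819 lower, receptors and signalling genes 0 in either direction and targets 1 higher. At a threshold of 0.01, all genes counted 1061 higher and 544 lower, receptors and signalling genes 0 in either direction and targets 1 lower. Grouping Stat2, Irf1, Irf7 and Irf9 with the targets left 0 signalling genes lower.

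Same-numbered libraries of the gates did not deviate together (correlations of -0.03, 0.06 and 0.00). The labels do not say whether the numbers pair the libraries. Noise within libraries could hide a shared source, so this check cannot decide it. FSC-A High 4 has no FSC-A Low library of the same number. With a replicate block, all genes counted 1457 higher and 971 lower against 1653 and 1243, and the median of the targets was -0.48. With the replicate block and the length trend removed, all genes counted 920 higher and 601 lower, receptors and signalling genes 0 in either direction, and targets 1 higher and 3 lower.

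Leaving out each library in turn, receptors and signalling genes counted 0 to 1 higher and 0 to 2 lower, targets 3 to 8 lower, and the median of the targets ran from -0.48 (without FSC-A High 4) to -0.13 (without FSC-A High 2). The 3 lower targets came without FSC-A Low 1. Without FSC-A High 4 and FSC-A Low 3 together, picked after seeing their target values, the median of the targets was -0.66. That choice itself lowers the median. Ifitm3, Ifitm1, Bst2, Samd9l, Ddx58 and Oas3 kept their calls without each single library.

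Signs changed only in genes not called with all libraries, and none was called in a setting where its sign changed. Most lay near 0, though Isg20 (0.57), Isg15 (0.48), Irf1 (0.29) and Ifngr2 (-0.28) did not. The changes were Irf3 (-0.049), Irf7 (-0.047) and Eif2ak2 (-0.058) with upper quartile scaling, and Eif2ak2 with TMM scaling (-0.0025) and a pseudocount of 5 (-0.0026). With summed RPKM as the scale they were Irf1 (-0.0018), Irf3 (-0.27), Irf7 (-0.27), Rtp4 (-0.18), Ifitm2 (-0.14) and Eif2ak2 (-0.25). With the replicate block they were Irf3 (-0.038), Irf7 (-0.035), Rtp4 (-0.096) and Ifitm2 (-0.12), and with the length trend removed as well Irf3 (-0.073), Irf7 (-0.16), Ifih1 (0.19), Isg15 (-0.22), Isg20 (-0.083), Rtp4 (-0.29) and Ifitm2 (-0.62). The length trend removed alone gave Irf3 (-0.013), Irf7 (-0.10), Ifit2 (0.11), Ifih1 (0.24), Isg15 (-0.034), Oasl2 (0.087), Rtp4 (-0.095) and Ifitm2 (-0.36). The expression trend removed gave Irf3 (-0.059), Irf7 (-0.22), Ifit2 (0.052), Ifit3 (0.033), Ifih1 (0.035), Rtp4 (-0.0023) and Ifitm2 (-0.25). Without FSC-A High 4 and FSC-A Low 3 they were Irf3 (-0.15), Irf7 (-0.076), Rtp4 (-0.18) and Ifitm2 (-0.15). Over single libraries left out, the ranges were -0.48 to 0.095 for Ifit2, -0.41 to 0.17 for Ifit3, -0.43 to 0.051 for Oasl2, -0.14 to 0.30 for Eif2ak2, -0.20 to 0.018 for Ifngr1, -0.63 to 0.092 for Ifngr2, -0.078 to 0.16 for Irf3, -0.035 to 0.079 for Irf7, -0.096 to 0.33 for Rtp4 and -0.12 to 0.51 for Ifitm2.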
